A study of Mus musculus with 26 samples.

Results

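The 36 genes described here mark T cells and natural killer (NK) cells, and their RNA was measured in the inguinal white fat pad of mice that lacked all of the glucose-responsive transcription factor ChREBP or its β isoform alone. They were chosen by name, through the gene name that the array gives each probe, and each gene was read from the probe with the highest mean. The choice was made with earlier results of these data known. Counts set beside the share of all genes therefore describe this set and are no independent test. All 36 passed the filter on dim probes, out of 25407 gene names tested, Ctla4 and Themis only through the WT mice of the total ChREBP line. They fall into 5 groups by role, namely 10 genes of the T cell receptor and its proximal signalling, 8 T cell surface molecules and co-receptors, 6 genes of naive and node-homing T cells, 5 genes of effector and regulatory T cells, and 7 genes of NK and cytotoxic cells.

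All mice were male C57BL6/J, were fasted for 24 h and were then refed for 18 h with food and with 20% glucose in the drinking water. Total ChREBP KO mice (n = 7) were null for Mlxipl, which encodes both isoforms, and were compared with WT mice of that line (n = 7). ChREBPβ KO mice (n = 5) lacked the exon specific to ChREBPβ, deleted with CRISPR/Cas9, and were compared with WT mice of their own line (n = 7). Both deletions were present in every cell of the body, so neither group isolates a change in the adipocyte. The paper states the use of several litters after naming the mice of the ChREBPβ line, and it does not describe litters of the total line. Ages were not given in the sources used here, and each array carried bulk RNA of the fat tissue of 1 mouse. The p-values therefore measure the spread between mice.

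T cells recognise antigen through a receptor whose chains are carried to the surface and coupled to signalling by the CD3 proteins. Naive T cells circulate between blood and lymph nodes, and enter nodes with the help of homing receptors. Once activated they become effector, memory or regulatory cells, some of which settle in tissues, and visceral fat in particular is known for its resident regulatory T cells. NK cells and cytotoxic T cells kill targets with perforin and granzymes and are found in tissues as well as in lymphoid organs. In the mouse the inguinal fat pad encloses a lymph node.

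Several facts on the arrays bear on what follows. Mlxipl, read from a probe at chr5:135613705-135613764 (mouse build mm9), had log2 intensities of 15.62 to 16.59 in total WT, 13.63 to 13.997 in total KO, 15.29 to 16.18 in ChREBPβ WT and 13.94 to 14.38 in ChREBPβ KO, so this probe was lower on every KO array than on any WT array of its line. It was the brightest of 3 tested Mlxipl probes. Another changed by -0.91 in total KO and by -0.68 in ChREBPβ KO, where it did not pass (limma, adjusted p = 0.0585). The last passed in neither (-0.14 and 0.04). Values throughout are log2 of the fluorescence intensity without background subtraction. Local background had a median of 15 to 23 intensity units per array, so changes of dim probes are understated. The adipocyte gene Adipoq was well above background on all 26 arrays, as the tissue label requires. Means over 12 B cell genes ran from 9.54 to 11.46 in total WT, 6.92 to 10.06 in total KO, 6.50 to 7.20 in ChREBPβ WT and 6.41 to 7.88 in ChREBPβ KO. Means over 6 genes of lymph node stroma and venules ran from 10.07 to 11.27, 7.17 to 10.07, 7.45 to 8.10 and 7.08 to 8.41 in the same order.

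Some arrays stood apart in the 36 genes. The total KO mice were spread more widely than the other groups, with a median SD over the genes of 1.18 on the log2 scale against 0.447 in total WT, 0.515 in ChREBPβ WT and 0.408 in ChREBPβ KO, and theirs was the largest SD for 32 of 36 genes. For 28 genes the widest gap between neighbouring total KO arrays left replicates 1, 4 and 7 below it and replicates 2, 3, 5 and 8 above it. In ChREBPβ WT, replicate 6 had the highest value of its group for 33 of 36 genes, and in total WT, replicate 4 had the lowest for 33 of 36.

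**Figure D1:**
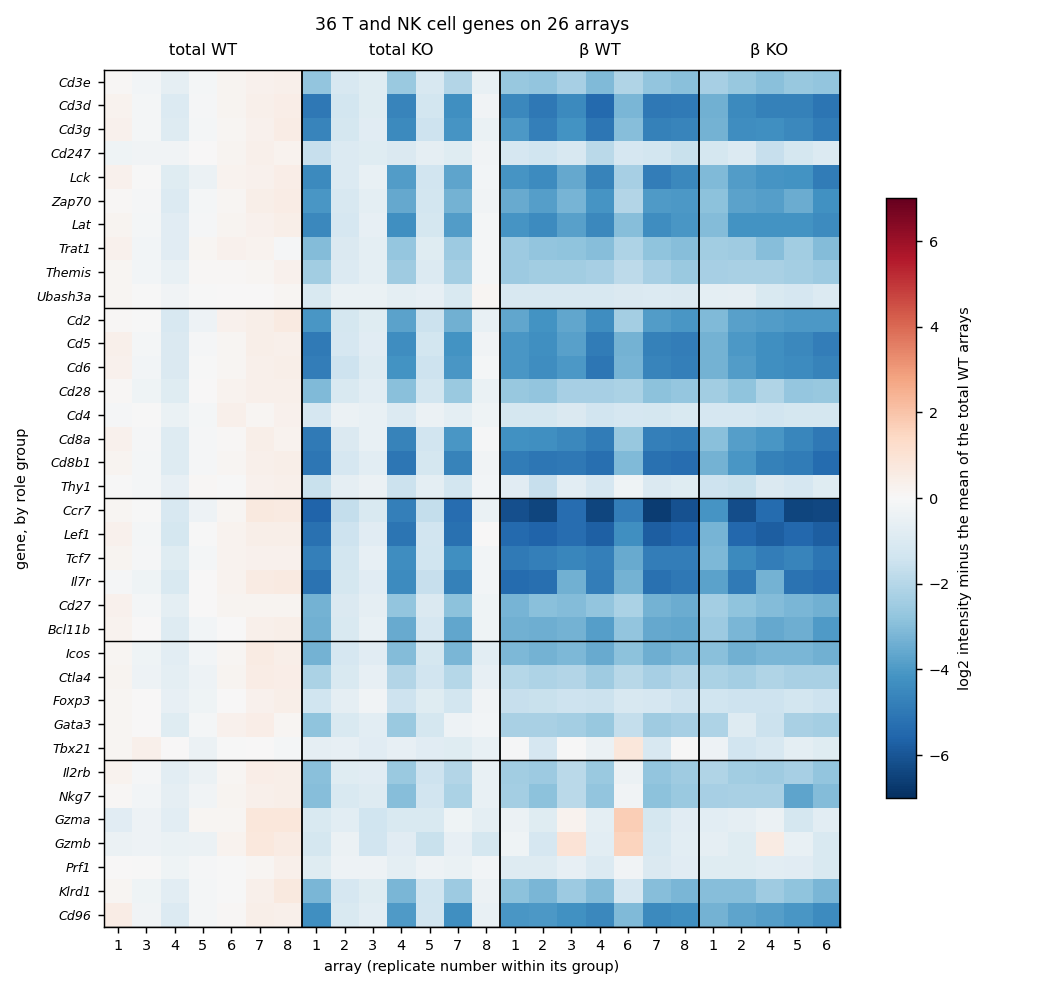
Log2 intensity of the 36 T and NK cell genes (rows, grouped by role) on each of the 26 arrays (columns, grouped by genotype), shown as the difference from the total WT mean of the same gene. Total WT arrays lie near 0. Total KO replicates 1, 4 and 7 lie apart below replicates 2, 3, 5 and 8 for 28 of 36 genes, with Gzma, Gzmb and Tbx21 not among them. Both groups of the ChREBPβ line are low for most genes, with replicate 6 the highest of the ChREBPβ WT arrays for 33 of 36 genes.

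All 36 genes fell in total KO compared with total WT (limma, adjusted p under 0.05 over all probes), against 19.7% of all tested genes that were called lower in that comparison. Ctla4 and Themis had passed the filter on dim probes only through total WT, where they were high. Their calls here and in the other comparisons that use total WT are therefore no separate support. The log2 changes ran from -0.46 for Prf1 to -2.94 for Ccr7, with a median of -1.78, whereas the median over all tested genes was 0.05. The arrays nevertheless overlapped for 35 of the 36 genes. The exception was Tbx21, and 4.68% of all tested genes had every KO array below every WT array. For 34 genes all 7 total KO arrays lay below the total WT mean, and for the other 2 genes 6 of 7 did. Within each of the 4 wash batches that the labels give, all 36 genes were lower in total KO, with median differences of -1.26, -1.08, -1.80 and -2.39. The batches held only 2, 1, 2 and 2 total KO and 1, 2, 2 and 2 total WT arrays. Total WT replicate 4 was the only one in batch 1. With all arrays, 42.6% of all tested genes had a lower mean in total KO, and genes read from 1 array are not independent. In a bulk sample such as this, fewer T or NK cells and less RNA per cell cannot be told apart. With the mean of the 12 B cell genes as a covariate, 0 of 36 genes were called (2 had an unadjusted p under 0.05), the lowest adjusted p was 0.0799 and the changes ran from -0.81 to 0.27 with a median of -0.19. Calls over all probes also fell in that fit, from 45.6% to 14.3%.

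The genes of the T cell receptor complex and its proximal signalling fell in total KO in 10 of 10 cases, with a median log2 change of -1.81. Cd3e, Cd3d and Cd3g encode the invariant CD3 chains, Cd247 encodes the zeta chain, Lck and Zap70 are the first kinases downstream, and Lat is the membrane adaptor on which the signal is assembled. Cd3e (probe at chr9:44806828-44806887, mm9) had 11.29, 11.98 and 12.26 as the lowest, median and highest log2 intensity in total WT, and 9.16, 10.77 and 11.39 in total KO. It had 8.84, 9.14 and 9.80 in ChREBPβ WT, and 9.60, 9.26, 8.99, 9.27 and 9.12 in replicates 1, 2, 4, 5 and 6 of ChREBPβ KO. Only the highest total KO array reached the range of total WT, and every array of the ChREBPβ line lay below it. The change in total KO was -1.57 ± 0.27 (SE, adjusted p = 4.29e-05), a 2.97-fold fall.

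Cd3d (chr9:44794452-44794511) fell 5.75-fold in total KO, from 11.96, 13.16 and 13.38 to 7.91, 11.65 and 12.67 as lowest, median and highest values (log2 change -2.52 ± 0.60, adjusted p = 0.00125). In ChREBPβ WT it had 7.48, 7.96 and 9.76, and in the 5 ChREBPβ KO arrays 9.56, 8.48, 8.18, 8.19 and 7.83. The lowest total KO arrays thus reached the level of the ChREBPβ line while the highest reached that of total WT. Its neighbour Cd3g (chr9:44777868-44777927) had 10.71, 11.75 and 12.10 in total WT, 6.97, 10.17 and 11.16 in total KO, and 6.54, 6.96 and 8.61 in ChREBPβ WT. The 5 ChREBPβ KO arrays had 8.31, 7.25, 7.28, 7.10 and 6.71. Cd3g fell by 2.45 ± 0.55 (SE, adjusted p = 0.000782) in total KO, and the order of the groups was that of Cd3d.

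Lck, the kinase that phosphorylates the receptor chains, had 12.42, 13.55 and 13.75 in total WT, 8.81, 11.92 and 13.08 in total KO, 8.43, 8.86 and 10.95 in ChREBPβ WT and 10.20, 9.39, 9.13, 9.08 and 8.41 in ChREBPβ KO. Its change in total KO was -2.17 ± 0.56 (adjusted p = 0.00247). Zap70 changed by -2.04 and Lat by -2.27 in the same comparison. Trat1, which stabilises the receptor at the surface, changed by -1.57, Themis, a signalling protein of developing and mature T cells, by -1.42, Cd247 by -0.88 and Ubash3a, which restrains receptor signalling, by -0.60. Themis was near background in the ChREBPβ line, being well above it on 7 total WT, 4 total KO, 1 ChREBPβ WT and 1 ChREBPβ KO arrays.

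The upstream sequences of 4 members are shown because these genes stand for the contrast described later between T cell genes that differed between the WT groups (Cd3d and Cd3e) and granzyme genes that did not pass that test (Gzma and Gzmb). Each is the 250 bases before the start that RefSeq gives (GRCm38.p6), read 5′ to 3′ on the strand of the gene, and capitals mark matches on either strand to the ETS core GGAAGT, the TCF and LEF core CTTTGA or the RUNX core TGTGGT. Cd3d lies at chr9:44981536-44981785 (plus strand) and its start is 1355 bases from that of Cd3g, while Cd3e lies at chr9:45009612-45009861 (minus strand), with its start 27825 bases from that of Cd3d. Gzma lies at chr13:113100982-113101231 and Gzmb at chr14:56262335-56262584, both on the minus strand.
Cd3d: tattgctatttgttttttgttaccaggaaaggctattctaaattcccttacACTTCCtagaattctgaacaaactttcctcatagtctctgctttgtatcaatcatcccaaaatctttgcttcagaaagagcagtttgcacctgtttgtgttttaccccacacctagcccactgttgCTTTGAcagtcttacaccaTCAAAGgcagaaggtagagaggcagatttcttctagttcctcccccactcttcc
Cd3e: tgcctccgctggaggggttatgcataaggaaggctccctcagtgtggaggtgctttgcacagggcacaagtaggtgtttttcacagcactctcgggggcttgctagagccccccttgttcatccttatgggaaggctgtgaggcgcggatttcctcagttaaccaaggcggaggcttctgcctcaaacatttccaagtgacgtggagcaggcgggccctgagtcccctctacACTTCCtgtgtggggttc
Gzma: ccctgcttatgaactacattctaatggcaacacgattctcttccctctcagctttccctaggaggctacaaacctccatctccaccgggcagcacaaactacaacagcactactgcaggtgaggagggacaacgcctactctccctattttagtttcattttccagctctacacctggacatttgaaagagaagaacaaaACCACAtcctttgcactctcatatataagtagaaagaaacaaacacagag
Gzmb: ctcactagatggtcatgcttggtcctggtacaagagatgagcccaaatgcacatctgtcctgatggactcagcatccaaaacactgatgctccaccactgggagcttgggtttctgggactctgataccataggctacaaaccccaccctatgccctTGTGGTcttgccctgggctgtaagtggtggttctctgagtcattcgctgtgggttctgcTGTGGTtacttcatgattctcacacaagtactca
Cd3d had 1 ETS match, 199 bases before its start, and TCF and LEF matches 73 and 54 bases before it. Cd3e had 1 ETS match, 18 bases before its start. Gzma had 1 RUNX match and Gzmb 2, at 50, 93 and 34 bases before their starts. Over the 26 of 36 members that had an entry, the ETS core occurred in 12, the RUNX core in 8 and the TCF and LEF core in 5. The same cores occurred in 22.2%, 15.9% and 15.8% of all 27025 genes in the table, counted in the same way over the windows of each gene, and in 19.7%, 14.05% and 13.8% of its 32851 single windows. A match describes letters in a window and is not a measured binding site.

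The T cell surface molecules and co-receptors fell in total KO in 8 of 8 cases, with a median log2 change of -2.29. Cd2, an adhesion receptor, had 11.54, 12.73 and 13.26 in total WT, 8.58, 11.14 and 12.10 in total KO, and 8.27, 8.74 and 10.27 in ChREBPβ WT. It had 9.52, 8.84, 8.74, 8.64 and 8.61 in ChREBPβ KO, and its change in total KO was -2.19 ± 0.46 (adjusted p = 0.0004). Cd5, which tunes receptor signalling, had 10.48, 11.60 and 11.87 in total WT against 6.53, 10.20 and 11.21 in total KO, a change of -2.42 ± 0.57 (adjusted p = 0.00118). It had 6.56, 7.19 and 8.19 in ChREBPβ WT and 8.18, 7.45, 7.17, 6.97 and 6.66 in ChREBPβ KO. For both genes the total KO arrays spanned almost the whole distance between total WT and the ChREBPβ line.

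Cd6, a relative of Cd5, had 10.94, 12.10 and 12.34 in total WT and 7.10, 10.48 and 11.79 in total KO, and changed by -2.44 ± 0.54. In ChREBPβ WT it had 6.90, 7.59 and 8.71, and in ChREBPβ KO 8.61, 8.04, 7.62, 7.53 and 7.25. The co-receptor of helper and regulatory T cells, Cd4, fell by 0.64 ± 0.12 (adjusted p = 0.000138). The co-receptor chains of cytotoxic T cells, Cd8a and Cd8b1, changed by -2.39 ± 0.62 and -2.59 ± 0.65. With the slide as a fixed block, Cd8a and Cd8b1 changed by -3.49 and -3.84 with adjusted p-values of 0.0576 and 0.0503, just outside the threshold. Cd28, the co-stimulatory receptor, changed by -1.74.

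Thy1, a surface protein of mouse T cells that fibroblasts and other stromal cells also carry, was read with arrays that lay closer together. It had 13.54, 14.13 and 14.51 in total WT, 12.59, 13.45 and 13.93 in total KO, 12.54, 13.26 and 13.84 in ChREBPβ WT and 12.66, 12.59, 13.14, 12.95 and 13.29 in ChREBPβ KO. The change in total KO was -0.89 ± 0.21 (adjusted p = 0.00113), with overlapping arrays.

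The genes of naive and node-homing T cells fell in total KO in 6 of 6 cases, with a median log2 change of -2.50. Ccr7 is the chemokine receptor that leads naive and central memory T cells into lymph nodes, Lef1 and Tcf7 are transcription factors of naive and memory T cells, Il7r is the receptor chain for the survival cytokine IL-7, Cd27 is a co-stimulatory receptor of naive and memory cells, and Bcl11b keeps T cell identity. Ccr7 (chr11:99005551-99005610) had 12.17, 13.42 and 13.95 in total WT. In total KO it had 7.68, 11.60, 12.24, 8.48, 11.65, 7.98 and 12.84 in replicates 1, 2, 3, 4, 5, 7 and 8, so 3 mice lay close to the ChREBPβ line and 4 lay close to total WT. In ChREBPβ WT it had 6.64, 7.13 and 8.47, and in ChREBPβ KO 9.18, 7.07, 7.93, 6.88 and 6.94. The change in total KO was -2.94 ± 0.66 (adjusted p = 0.000751), or 7.65-fold.

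Lef1 (chr3:130926200-130926259) had 10.60, 12.07 and 12.24 in total WT and 6.03, 6.27 and 7.50 in ChREBPβ WT. The 3 low total KO arrays had 6.59 to 6.72 and the other 4 had 10.36 to 11.82, with nothing in between. ChREBPβ KO had 8.56, 6.32, 6.02, 6.31 and 6.07, of which replicate 1 was the exception. The change in total KO was -2.72 ± 0.68 (adjusted p = 0.00206). Tcf7 (chr11:52066114-52066173) had 9.54, 10.57 and 10.68 in total WT, 5.59, 8.96 and 10.15 in total KO, 5.40, 5.57 and 6.83 in ChREBPβ WT and 7.23, 5.92, 5.55, 5.75 and 5.26 in ChREBPβ KO. It changed by -2.40 ± 0.57 in total KO, and the order of the groups was that of Lef1. Il7r changed by -2.60, Bcl11b by -1.95 and Cd27 by -1.69.

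**Figure D2:**
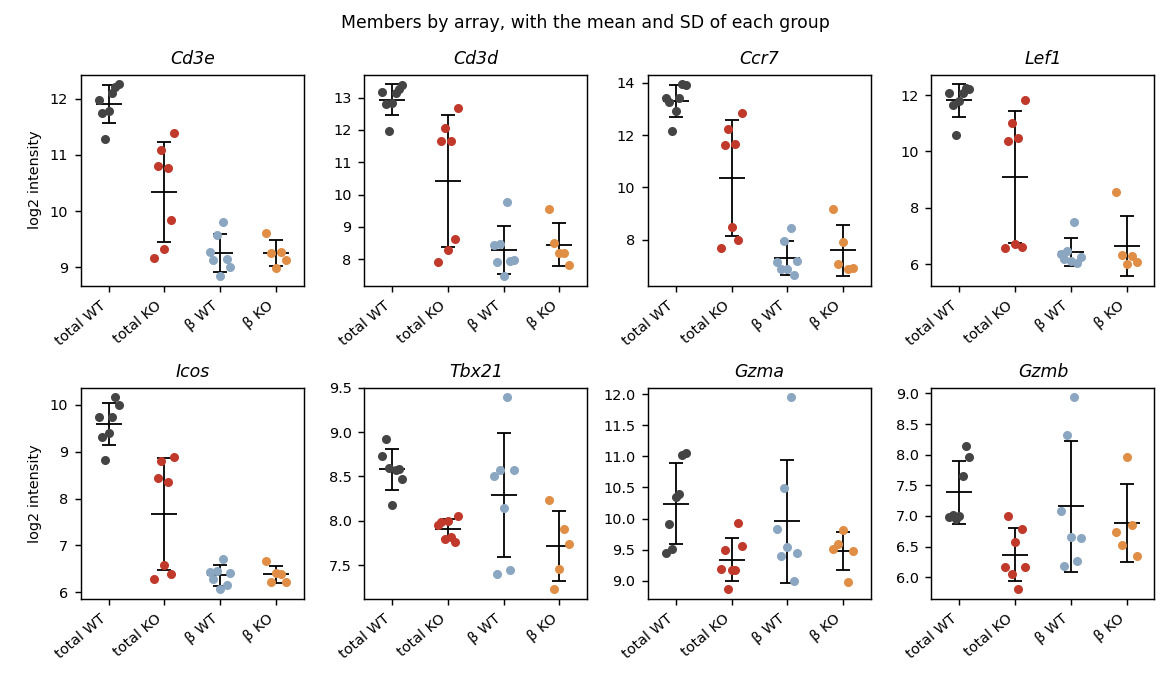
Log2 intensity of Cd3e, Cd3d, Ccr7, Lef1, Icos, Tbx21, Gzma and Gzmb on each array (points) with the group mean and SD, for total WT and KO (n = 7 each), ChREBPβ WT (n = 7) and ChREBPβ KO (n = 5). Ccr7 was at 12.17 to 13.95 in total WT and at 6.64 to 8.47 in ChREBPβ WT, whereas Gzma and Gzmb overlapped across the 4 groups and Tbx21 was lower in total KO than in total WT with no overlap.

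The genes of effector and regulatory T cells fell in total KO in 5 of 5 cases, with a median log2 change of -1.28. Icos, a co-stimulatory receptor of activated, follicular and regulatory T cells, had 8.83, 9.74 and 10.16 in total WT, 6.27, 8.35 and 8.88 in total KO, and 6.06, 6.42 and 6.72 in ChREBPβ WT. It had 6.67, 6.22, 6.42, 6.40 and 6.22 in ChREBPβ KO, a narrow range, and its change in total KO was -1.92 ± 0.34 (adjusted p = 6.68e-05). Ctla4, an inhibitory receptor of regulatory and activated T cells, had 6.02, 6.87 and 7.22 in total WT and 4.46, 5.34 and 6.12 in total KO, and changed by -1.41 ± 0.23 (adjusted p = 2.34e-05). It was well above background on 7 total WT and 4 total KO arrays and on none of the 12 arrays of the ChREBPβ line.

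Foxp3, the transcription factor that defines regulatory T cells, had 6.49, 7.10 and 7.50 in total WT, 5.61, 6.22 and 6.84 in total KO, 5.47, 5.63 and 5.98 in ChREBPβ WT and 5.66, 5.62, 5.62, 5.80 and 5.61 in ChREBPβ KO. It was well above background on every array and changed by -0.88 ± 0.18 (adjusted p = 0.000241) in total KO. Gata3, the factor of type 2 helper cells and of innate lymphoid cells, changed by -1.28 ± 0.33.

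Tbx21 encodes T-bet, the factor of type 1 helper cells, effector CD8 T cells and NK cells, and it differed from the other members in how its arrays were arranged. Total WT had 8.18, 8.58 and 8.92 and total KO 7.76, 7.95 and 8.05, with no overlap and, unlike the naive genes, a narrow spread in total KO. ChREBPβ WT had 7.40, 8.51 and 9.39, and ChREBPβ KO 8.24, 7.23, 7.45, 7.91 and 7.74. The change in total KO was -0.67 ± 0.21 (adjusted p = 0.0126). With the slide as a fixed block the change was -1.14 (adjusted p = 0.0862), and with the mean of 10 skeletal muscle genes as a covariate it was -0.59 (adjusted p = 0.0506). That muscle mean had 6.22, 6.38 and 11.90 as lowest, median and highest values in total WT and 6.09, 11.08 and 13.90 in total KO.

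The genes of NK and cytotoxic cells fell in total KO in 7 of 7 cases, with a median log2 change of -1.59. Il2rb, the chain through which NK and memory CD8 T cells receive IL-2 and IL-15, had 9.89, 10.79 and 11.12 in total WT, 7.73, 9.23 and 10.14 in total KO and 7.87, 8.17 and 10.25 in ChREBPβ WT. It had 8.54, 8.23, 8.15, 8.33 and 7.91 in ChREBPβ KO, and its change in total KO was -1.59 ± 0.35 (adjusted p = 0.00067). Nkg7, a protein of cytotoxic granules, had 10.81, 11.51 and 11.87 in total WT, 8.44, 10.07 and 10.90 in total KO, 8.54, 8.82 and 11.18 in ChREBPβ WT and 9.13, 9.18, 9.17, 7.74 and 8.39 in ChREBPβ KO. It changed by -1.72 ± 0.40 (adjusted p = 0.00103). In both genes the top ChREBPβ WT value belonged to replicate 6 and lay inside the range of total WT, where the other 6 arrays of that group did not reach.

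Gzma (chr13:113884035-113884094) encodes granzyme A, a serine protease of cytotoxic granules, and had 9.44, 10.35 and 11.06 in total WT and 8.86, 9.18 and 9.92 in total KO. It had 9.0003, 9.54 and 11.95 in ChREBPβ WT and 9.52, 9.59, 9.82, 8.98 and 9.48 in ChREBPβ KO. The groups overlapped, and the change in total KO was -0.90 ± 0.33 (adjusted p = 0.0286). Gzmb (chr14:56877916-56877975), which encodes granzyme B, had 6.95, 7.02 and 8.14 in total WT and 5.80, 6.17 and 6.99 in total KO, a change of -1.02 ± 0.36 (adjusted p = 0.022). It had 6.19, 6.66 and 8.94 in ChREBPβ WT and 6.74, 6.52, 7.96, 6.85 and 6.34 in ChREBPβ KO. Both calls lay near the threshold. Without total WT replicate 7 the changes were -0.77 for Gzma (adjusted p = 0.0705) and -0.89 for Gzmb (adjusted p = 0.0537), and without total WT replicate 8 they were -0.77 (adjusted p = 0.0723) and -0.92 (adjusted p = 0.0501). Gzma changed by -0.83 without total KO replicate 3 (adjusted p = 0.0567) and by -0.92 with the muscle covariate (adjusted p = 0.0501), so its size stayed similar.

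Prf1, which encodes the pore-forming protein perforin, had 8.04, 8.32 and 8.69 in total WT, 7.52, 7.99 and 8.17 in total KO and 7.36, 7.47 and 8.12 in ChREBPβ WT, and changed by -0.46 ± 0.11 (adjusted p = 0.00197) in total KO. Its ChREBPβ KO arrays had 7.51, 7.53, 7.59, 7.55 and 7.28. Klrd1, which encodes CD94, the partner of the NKG2 receptors, had 9.73, 10.48 and 11.15 in total WT, 7.27, 9.11 and 10.08 in total KO and 7.29, 7.51 and 9.29 in ChREBPβ WT. In the 5 ChREBPβ KO arrays it had 7.50, 7.50, 7.996, 7.67 and 7.26, and it changed by -1.82 ± 0.38 in total KO. Cd96, a receptor shared by T and NK cells, had 8.21, 9.24 and 9.69 in total WT, 4.88, 7.83 and 8.68 in total KO and 4.69, 4.92 and 6.08 in ChREBPβ WT. The ChREBPβ KO arrays had 5.89, 5.48, 5.31, 5.09 and 4.75. The change of Cd96, -2.31 ± 0.51, was the largest fall of the 7 genes in total KO.

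Loss of ChREBPβ alone gave no call among the 36 genes. The comparison of ChREBPβ KO with its WT called 0 of 36 (limma, 1 with an unadjusted p under 0.05), against 0.0472% of all tested genes, or 12. The median log2 difference was 0.03 and the lowest adjusted p was 0.536, for Tbx21, at -0.58 ± 0.24 (unadjusted p = 0.021). For Cd3e the difference was -0.00 ± 0.29 with a 95% interval of -0.61 to 0.60, and for Cd4 it was -0.05 with an interval of -0.32 to 0.22. For Ccr7 it was 0.29 ± 0.72 with an interval of -1.19 to 1.78, wide enough to hold a change of 1 log2 unit either way. Values for the cytotoxic genes were -0.48 for Gzma, -0.27 for Gzmb, -0.10 for Prf1, -0.48 for Nkg7, -0.26 for Il2rb, -0.18 for Klrd1 and 0.22 for Cd96. None was past the threshold. By wash batch, 4, 11 and 33 of 36 genes had a lower mean in ChREBPβ KO in batches 1, 3 and 4, and batch 2 held no ChREBPβ KO array. Those batches held only 2, 2 and 1 ChREBPβ KO and 1, 1 and 3 ChREBPβ WT arrays. With all arrays, 49.5% of all tested genes had a lower mean in ChREBPβ KO.

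The KO effects of the 2 lines differed for 28 of 36 genes, all with the more positive change in ChREBPβ KO, against 9.95% of all tested genes. The lines started from unequal levels, with 33 of 36 genes lower in ChREBPβ WT than in total WT (median difference -2.86). Ctla4 was well above background on no array of the ChREBPβ line, and Themis on 1 WT and 1 KO array of it. For such genes a fall in ChREBPβ KO could hardly be read. The part of the unequal levels in the difference was not tested. The difference of the effects was 1.57 ± 0.40 for Cd3e (adjusted p = 0.00657), 3.23 ± 0.98 for Ccr7 (adjusted p = 0.0194) and 1.95 ± 0.51 for Icos (adjusted p = 0.00764). It passed the test for 9 of 10 receptor genes, 7 of 8 surface genes, 6 of 6 naive genes, 4 of 5 effector and regulatory genes and 2 of 7 cytotoxic genes. The 8 that did not pass were Lck (difference 2.19, adjusted p = 0.0573), Il2rb (1.33, adjusted p = 0.0691), Nkg7 (1.24, adjusted p = 0.138), Prf1 (0.36, adjusted p = 0.134), Thy1 (0.61, adjusted p = 0.161), Gzmb (0.75, adjusted p = 0.337), Gzma (0.43, adjusted p = 0.578) and Tbx21 (0.09, adjusted p = 0.87). Klrd1 and Cd96 passed at 1.64 and 2.53, with adjusted p-values of 0.0366 and 0.0178. Without ChREBPβ KO replicate 1 the count fell to 17, and without ChREBPβ WT replicate 6 it was 32. Of all probes, 7938 and 8718 were then called, against 8714 with all arrays. With the slide as a fixed block the count was 1. Under that block the differences were larger, from 0.78 to 6.04 with a median of 3.03 against 1.74, and 34 of 36 had an unadjusted p under 0.05, while calls over all probes fell from 22.4% to 1.58%. With the B cell covariate the count was 0, with 1 at an unadjusted p under 0.05, a lowest adjusted p of 0.152 and 5.70% of all probes called.

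The WT mice of the lines also differed from each other. Of the 36 genes, 33 were lower in ChREBPβ WT than in total WT, against 19.2% of all tested genes, and for 29 of them every ChREBPβ WT array lay below every total WT array, against 6.27% of all tested genes. The median difference was -2.86 on the log2 scale, beside -1.78 for total KO against total WT. Line and anything that differed between the lines, housing and dissection included, cannot be told apart here, and this comparison shares its total WT arrays with that of total KO. Within the wash batches 35, 34, 36 and 35 of 36 genes were lower in ChREBPβ WT. The batches held only 1, 2, 1 and 3 ChREBPβ WT and 1, 2, 2 and 2 total WT arrays. With all arrays, 45.6% of all tested genes had a lower mean in ChREBPβ WT. With the B cell covariate 0 of 36 were called (1 at an unadjusted p under 0.05), with a lowest adjusted p of 0.168 and differences from -1.01 to 0.54. Calls over all probes fell from 45.2% to 3.28% in that fit, and the median SE of the 36 genes rose from 0.37 to 0.67.

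**Figure D3:**
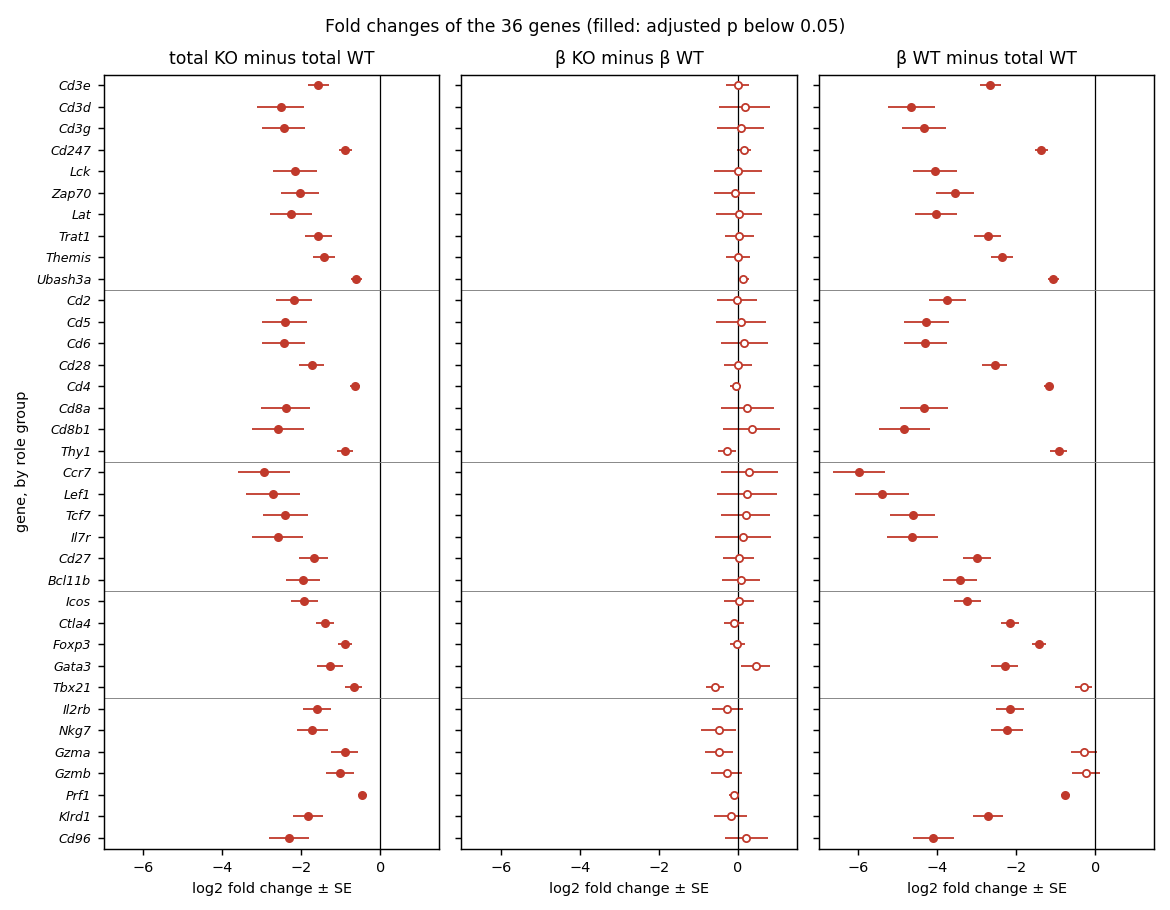
Log2 differences with SE of the 36 genes for total KO minus total WT, ChREBPβ KO minus ChREBPβ WT and ChREBPβ WT minus total WT, with filled points for an adjusted p under 0.05. All 36 points are filled and below 0 in the first panel, none is filled in the second, and in the third all but Tbx21, Gzma and Gzmb are filled, with Ccr7 lowest at -5.99.

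Between the WT groups the naive genes had the lowest median difference, -4.62 over the 6 genes, against -4.01 for the surface genes, -3.14 for the receptor genes and -2.15 for both the effector and regulatory genes and the cytotoxic genes. Ccr7 was lower by 5.99 ± 0.66 (SE, adjusted p = 1.15e-07), which is 63.4-fold, and Lef1 was 42.0-fold lower. Cd8b1 was 28.4-fold lower, Cd3d 25.3-fold and Cd3e 6.32-fold, with no overlap in any of them. Foxp3 was lower by 1.41 ± 0.18 (SE, adjusted p = 6.08e-07) and Icos by 3.24. Ctla4, not well above background on any ChREBPβ WT array, was at least 4.17-fold lower (adjusted p = 7.83e-08), where the bound is the total WT mean over the mean of the dimmest signal that counted as above background.

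The 3 genes that did not pass between the WT groups were all of the effector and cytotoxic kind. Gzma differed by -0.29 ± 0.33 (adjusted p = 0.512, 95% interval -0.97 to 0.40), Gzmb by -0.23 ± 0.36 (adjusted p = 0.634, -0.97 to 0.51) and Tbx21 by -0.29 ± 0.21 (adjusted p = 0.292, -0.73 to 0.15). ChREBPβ WT replicate 6 had the highest value of its group in all 3, at 11.95, 8.94 and 9.39. Without it the differences were -0.62 for Gzma (adjusted p = 0.0519), -0.53 for Gzmb (adjusted p = 0.178) and -0.47 for Tbx21 (adjusted p = 0.0409), so 34 of 36 genes were then called. Other cytotoxic genes passed with all arrays, Prf1 at -0.76 ± 0.11, Il2rb at -2.15, Nkg7 at -2.24, Klrd1 at -2.72 and Cd96 at -4.10. Thy1 passed at -0.93 ± 0.21 (adjusted p = 0.000718), although its arrays overlapped.

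The naive and the cytotoxic genes overlapped in the size of their changes. In total KO the 6 naive genes ran from -1.69 (Cd27) to -2.94 (Ccr7) and the 7 cytotoxic genes from -0.46 (Prf1) to -2.31 (Cd96). Between the WT groups the naive genes ran from -2.99 (Cd27) to -5.99 (Ccr7) and the cytotoxic genes from -0.23 (Gzmb) to -4.10 (Cd96). Cd96 and, in total KO, Klrd1 and Nkg7 thus had larger falls than the naive gene Cd27. Gzma, Gzmb, Prf1 and Il2rb had smaller ones than any naive gene. On each array, the mean of the 7 cytotoxic genes minus that of the 6 naive genes had -1.33, -1.18 and -0.81 as lowest, median and highest values in total WT and -1.46, -0.63 and 1.43 in total KO. It had 1.38, 1.52 and 2.10 in ChREBPβ WT and 0.23, 1.44 and 1.52 in ChREBPβ KO. These values depend on the probes, only their change between arrays has a meaning, and no test was run on them.

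**Figure D4:**
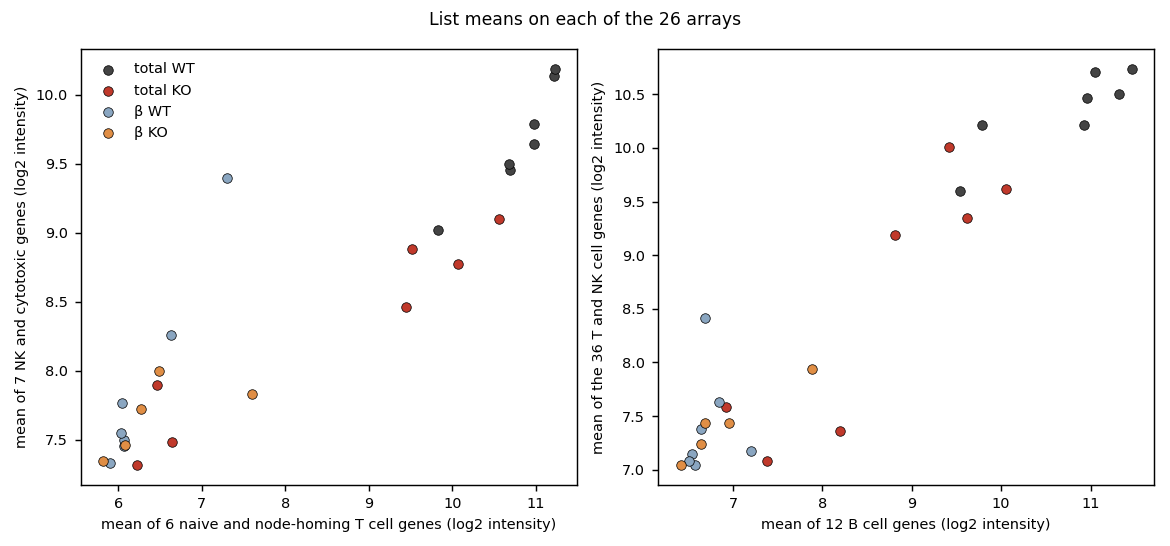
Left, the mean log2 intensity of the 7 NK and cytotoxic genes against that of the 6 naive genes on each of the 26 arrays; right, the mean of the 36 T and NK cell genes against that of 12 B cell genes. The total WT arrays lie at 9.83 to 11.22 for the naive mean and the ChREBPβ WT arrays at 5.90 to 7.30. The total KO arrays run from 6.23 to 10.56 and overlap both of these ranges. ChREBPβ WT replicate 6 has the highest cytotoxic mean of its group, 9.40.

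Genes of the same pathways that were not members were read from lists of the same kind, also chosen with earlier results of these data known. Their counts stand beside 19.7% of all tested genes called lower and 26.2% called higher in total KO, and 19.2% called lower and 26.4% called higher in ChREBPβ WT against total WT. Of 23 other genes of T cell receptor signalling, 20 fell in total KO and 1, Plcg1, a phospholipase used in many cell types, rose by 0.41. Skap1, an adaptor of receptor-driven adhesion, had the largest fall (-2.33). In ChREBPβ WT against total WT 20 of the 23 were lower. Of 10 other genes of naive and recirculating lymphocytes, 8 fell in total KO, among them Dapl1 (-3.05), which naive T cells express. Igfbp4, which stromal cells also make, rose by 1.01. In ChREBPβ WT against total WT 8 of the 10 were lower and 1 was higher, with Dapl1 at -6.08.

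Of 15 other genes of effector, regulatory and resident T cells, 9 fell in total KO, including the receptors Tnfrsf18 (-1.79) and Tnfrsf4 (-1.66) of regulatory and activated T cells, and 3 rose, including Rora (0.90) and Lag3 (0.66). Between the WT groups 9 were lower in ChREBPβ WT and 4 were higher, including Il1rl1 (1.23), the IL-33 receptor of fat-resident regulatory T cells, mast cells and type 2 innate lymphoid cells, and Maf (0.85), which macrophages also express. Of 16 other genes of NK and cytotoxic cells, 10 fell in total KO, led by the chemokine Ccl5 (-2.05) and Cst7 (-1.94), an inhibitor of granule proteases. Between the WT groups 8 of the 16 were lower, Ccl5 by 3.40 and Cst7 by 2.83. Gzmk (0.26) and Klrb1c (0.09), which encodes NK1.1, did not pass that test. In ChREBPβ KO against its WT none of the genes of the 4 lists was called (limma, 1 gene at an unadjusted p under 0.05). Cd40lg, Areg, Fasl and Zfp683, which were on these lists, did not pass the filter on dim probes. Tigit and Cd160 passed it only through total WT.

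B cell markers and most markers of node stroma and venules moved with the 36 genes, whereas the adipocyte and muscle lists did not. Macrophage and dendritic cell markers did so in part. The counts that follow stand beside 19.7% of all tested genes called lower and 26.2% called higher in total KO. Between the WT groups these shares were 19.2% lower and 26.4% higher in ChREBPβ WT. Of 12 B cell genes 12 fell in total KO (median -2.38) and 12 were lower in ChREBPβ WT (median -4.56). Of 6 tested genes of node stroma and venules, 5 fell in total KO and 4 were lower in ChREBPβ WT, with Ccl21a, the chemokine that binds Ccr7, at -3.53 ± 0.97 (adjusted p = 0.00432) and -7.25. Of 12 macrophage genes 5 fell in total KO, whereas between the WT groups 1 was lower and 8 were higher in ChREBPβ WT, so these did not move with the T cell genes there. Of 12 adipocyte genes 10 rose in total KO, where 26.2% of all tested genes were called higher, with Adipoq at 1.05 ± 0.10 (adjusted p = 8.37e-09). Between the WT groups 7 of the 12 were higher in ChREBPβ WT, beside 26.4% of all tested genes. The median over the 12 genes was 0.58 there and 0.54 in total KO, so the rise was not particular to the KO. Of 10 skeletal muscle genes 2 rose in total KO, 8 had an unadjusted p under 0.05 and the median change was 2.69, and 0 were called between the WT groups (limma, 0 at an unadjusted p under 0.05), with a median of 1.55. Of 6 dendritic cell genes 3 fell and 1 rose in total KO, and between the WT groups 3 were lower and 1 was higher in ChREBPβ WT. The B cell gene Blk and the dendritic cell gene Xcr1 passed the filter only through total WT. None of these lists had a called gene in ChREBPβ KO. The part of these cells in the change of the T and NK cell genes was not tested. The B cell genes themselves fell in total KO and their mean did not overlap between the WT groups, so the fit with it as a covariate does not separate node tissue from other sources of a shared change.

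Other probes gave the same picture in total KO and between the WT groups where they existed. The array held 64 probes for the 36 genes, of which 59 were tested, and 16 genes had more than 1 tested probe. All 23 second probes had the sign of the chosen probe in total KO and between the WT groups, and 22 and 23 of them were called lower. Some of these probes, such as those of Themis, passed the filter only through total WT. In the difference of effects all 23 had that sign too, but some calls depended on the probe (limma). The second probe of Lck passed (1.84, adjusted p = 0.0204). Among genes that passed, the second probe of Trat1 (0.52, adjusted p = 0.0991) did not, nor did 1 of Cd4 (0.35, adjusted p = 0.0513) and 1 of Cd247 (0.26, adjusted p = 0.242).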

How the data were processed

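Subcutaneous inguinal fat RNA of 26 mice was hybridised to 1-colour Agilent mouse arrays, and groups were taken from the labels. The authors extracted spot intensity with Agilent Feature Extraction 10.10.1.1 (per the labels and file headers), and deposited linear intensity files with quality calls per spot. A second deposited table, of log2 values that the authors quantile normalized, served here to choose probes and as an alternative. Here log2 of the median intensity, with no background subtraction, was filtered (well above background on at least 21 of 26 arrays or on 75% of the arrays of a group), 1747 spot values marked as outliers were removed, and arrays were quantile normalized and replicate spots reduced to their median, with limma 3.58.1 in R 4.3.3. The study's filter counted 32 arrays and was scaled to the 26 used here. This left 38832 probes for 25407 gene names. No spot was saturated, 70.2% to 76.5% of probes per array were well above background, and the number of arrays limits the precision.

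One limma model with 4 group means (22 residual degrees of freedom) gave both KO effects, their difference and the difference of the WT groups, with Benjamini-Hochberg adjustment over all probes, called at 0.05. Steps were tested on simulated data. Values by array are given for the first 3 genes of each role and for those whose call differed from the rest of their role; genes of other lists are named for their largest changes, at most 2 each way. The members and lists were chosen with earlier results of these data known. Alternatives covered background, scaling, filters, probes, blocks, covariates, array weights and each array left out. Promoters came from RefSeq (GRCm38.p6) and no coordinates were moved between builds. Some items of the lists are not reported here.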

Additional observations from a re-analysis of the deposited data

Results flagged for a closer look

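Single arrays stood far from the rest of their group in 24 of the 144 combinations of gene and group tested by Dixon's criterion (16.7%), where chance gives about 1 in 20. Genes read from 1 array are not independent of each other. ChREBPβ WT replicate 6 was set apart as the highest of its group for 13 genes, with log2 intensities of 9.76 for Cd3d, 9.58 for Zap70, 5.18 for Themis, 10.27 for Cd2, 7.37 for Cd8a, 9.43 for Cd8b1, 7.50 for Lef1, 6.83 for Tcf7, 8.33 for Gata3, 10.25 for Il2rb, 11.18 for Nkg7, 9.29 for Klrd1 and 6.08 for Cd96. Total WT replicate 4 was set apart as the lowest of its group for 6 genes, at 11.96 for Cd3d, 10.48 for Cd5, 10.94 for Cd6, 9.17 for Cd8a, 10.60 for Lef1 and 9.54 for Tcf7. ChREBPβ KO replicate 1 was the highest of its group for Lat (8.20), Cd2 (9.52) and Lef1 (8.56), ChREBPβ KO replicate 5 for Foxp3 (5.80), and ChREBPβ KO replicate 6 was the lowest for Prf1 (7.28).

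The effects of the KOs differed between the lines, by the test of the difference itself, for 28 genes. The WT levels of the lines were unequal, as described above. The difference (ChREBPβ effect minus total effect, log2) was 1.57 for Cd3e, 2.70 for Cd3d, 2.52 for Cd3g, 1.05 for Cd247, 1.97 for Zap70, 2.30 for Lat, 1.61 for Trat1, 1.43 for Themis and 0.75 for Ubash3a among the receptor genes. Among the surface genes it was 2.16 for Cd2, 2.51 for Cd5, 2.61 for Cd6, 1.75 for Cd28, 0.59 for Cd4, 2.64 for Cd8a and 2.94 for Cd8b1. It was 3.23 for Ccr7, 2.96 for Lef1, 2.60 for Tcf7, 2.74 for Il7r, 1.71 for Cd27 and 2.03 for Bcl11b among the naive genes. It was 1.95 for Icos, 1.32 for Ctla4, 0.88 for Foxp3, 1.73 for Gata3, 1.64 for Klrd1 and 2.53 for Cd96 in the remaining groups.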

How the results depend on the processing

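Counts of called genes stood at 36 (total KO), 0 (ChREBPβ KO), 28 (difference of effects) and 33 (between WT groups). They stayed within 1.5 times of these under other scalings, backgrounds and probe rules, the authors' table, array weights, wash batch, slide as a random block and the muscle covariate, which was chosen after seeing the data. With only probes well above background on all arrays, 13 genes remained in the test. In total KO, the difference of effects and between the WT groups 13, 8 and 11 were called. Of all 21296 probes in that test, 10559, 5456 and 10180 were called in either direction. With the slide as a fixed block the difference of effects had 1 call, although its median rose from 1.74 to 3.03 and 34 genes had an unadjusted p under 0.05, as all probes called fell from 8714 to 612. The replicate numbers did not pair the arrays (4 of 10 pairs correlated above 0.1, and 2 of 10 KO arrays correlated best with their own number), and with a replicate block the counts were 36, 0, 8 and 33. In that fit 30 of 36 genes had an unadjusted p under 0.05 (limma) for the difference of effects. Calls over all probes were not counted for it. Leaving out each array in turn gave 34 to 36, 0 to 0, 17 to 32 and 33 to 34. Scaling to the 75th percentile moved the median of all probes from 0.05 to -0.07 in total KO, from -0.04 to 0.12 in the difference of effects and from 0.03 to -0.13 between the WT groups, which is small beside the changes of the genes.

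With the B cell covariate the counts were 0 in all 4, and all probes called went from 17691 to 5567, 14 to 20, 8714 to 2213 and 17552 to 1273. The cause was not tested. The sign then turned in total KO for Lck (0.17), Lat (0.032), Cd8a (0.12), Cd8b1 (0.062), Ccr7 (0.061), Lef1 (0.27), Tcf7 (0.078) and Il7r (0.099). It turned in the difference of effects for Cd3d (-0.044), Cd3g (-0.048), Zap70 (-0.20), Lat (-0.22), Cd5 (-0.13), Cd8a (-0.11), Ccr7 (-0.058), Lef1 (-0.33), Tcf7 (-0.12), Il7r (-0.22) and Bcl11b (-0.10). Between the WT groups it turned for Cd3d (0.13), Cd3g (0.15), Lck (0.43), Zap70 (0.23), Lat (0.37), Cd2 (0.022), Cd5 (0.32), Cd6 (0.027), Cd28 (0.026), Cd8a (0.47), Cd8b1 (0.26), Thy1 (0.29), Lef1 (0.36), Tcf7 (0.14), Il7r (0.54), Bcl11b (0.31), Foxp3 (6.13e-06), Il2rb (0.24), Nkg7 (0.19) and Cd96 (0.19). None of these values passed the test. Signs of values not called in either fit were not compared.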
